A study of Mus musculus with 4 samples.

Results

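The genes described here lie in 3 stretches of the mouse genome whose transcripts were, taken by position, lower in EpH4 cells exposed to PM2.5 than in control cells. They are all of chromosome 16, the part of chromosome 4 with gene starts below position 108918342 (proximal chromosome 4), and the part of chromosome 8 with gene starts at or above 84156713 (distal chromosome 8), on the GRCm39 build. A gene counted as a member when its raw counts averaged at least 8 CPM (counts scaled to library size) over the 4 libraries. That gave 854 members of 25413 genes in the count table, and of 9664 genes at this level: 309 on chromosome 16, 266 on proximal chromosome 4 and 279 on distal chromosome 8. A further 1009 genes of the 3 stretches were below the minimum, of which 449 had no count in any library. The stretches were selected on the PM2.5 against control difference of these libraries. Every fold change of a member is therefore a description, without a test. Just inside the CPM limit were Smim27, Wdr53 and Srl, with means of 8.05, 8.07 and 8.10 CPM and log2 fold changes of -0.48, -0.20 and -0.81. Just outside were Fbxl8, Tmem38b and Tango2, with 7.87, 7.86 and 7.68 CPM and log2 fold changes of -0.25, -0.57 and -0.11.

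EpH4 is a wild-type mouse mammary epithelial cell line, grown here in 2D culture, and PM2.5 is the fine fraction of airborne particulate matter. There were 2 control libraries and 2 libraries from PM2.5-exposed cells of the same line, made as stranded polyA RNA-seq libraries. The labels give neither the dose nor the time of exposure, and do not say whether replicates came from separate cultures, so the spread between them may be technical.

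Genes that lie side by side on a chromosome share its copy number and its chromatin environment, so neighbours of unrelated function can have transcript levels that move together. Neither copy number nor chromatin was measured here. Against such a shared shift, single genes can still follow their own promoters, as with genes induced by cytokines, by xenobiotics or by changes of sterol content. Mouse chromosome 16 carries the orthologues of much of human chromosome 21 and of the 22q11 region, and mouse chromosome 4 those of part of the short arm of human chromosome 9.

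The promoters of 6 members are shown, 1 far above and 1 far below control in each stretch, because they show how far apart genes of 1 stretch could stand. They were taken by log2 fold change among members whose groups did not overlap, with a RefSeq promoter and a name other than a predicted or clone name; the predicted gene Gm21970 on chromosome 16, at 1.05, stood above Mylk. Each sequence is the 250 bases before the annotated start, read 5′ to 3′ on the strand of the gene, from RefSeq on the GRCm38.p6 build, which is not the build of the count table. A gene can have several annotated starts, and the starts used were not matched to the gene spans given below. Capitals mark matches to the motifs searched. Tarbp1 is shown in place of Foxl1, which had no entry among the promoters used.
Mylk (above control, chr16:34784700-34784949, plus strand): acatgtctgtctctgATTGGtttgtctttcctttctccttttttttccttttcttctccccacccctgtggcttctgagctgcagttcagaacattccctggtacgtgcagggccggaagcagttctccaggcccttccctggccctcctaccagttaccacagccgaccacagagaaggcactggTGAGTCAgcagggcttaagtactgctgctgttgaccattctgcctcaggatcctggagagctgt
Adamts1 (below control, chr16:85803114-85803363, minus strand): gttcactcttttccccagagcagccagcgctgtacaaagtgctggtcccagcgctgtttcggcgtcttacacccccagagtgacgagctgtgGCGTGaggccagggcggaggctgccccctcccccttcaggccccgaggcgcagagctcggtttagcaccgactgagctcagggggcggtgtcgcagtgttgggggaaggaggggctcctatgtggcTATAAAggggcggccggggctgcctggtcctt
Abca1 (above control, chr4:53159896-53160145, minus strand): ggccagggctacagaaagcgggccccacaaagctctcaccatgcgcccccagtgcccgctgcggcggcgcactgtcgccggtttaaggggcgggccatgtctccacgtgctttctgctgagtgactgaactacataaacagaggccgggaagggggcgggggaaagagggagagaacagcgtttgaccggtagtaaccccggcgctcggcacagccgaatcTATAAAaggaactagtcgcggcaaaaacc
Ptgr1 (below control, chr4:58987079-58987328, minus strand): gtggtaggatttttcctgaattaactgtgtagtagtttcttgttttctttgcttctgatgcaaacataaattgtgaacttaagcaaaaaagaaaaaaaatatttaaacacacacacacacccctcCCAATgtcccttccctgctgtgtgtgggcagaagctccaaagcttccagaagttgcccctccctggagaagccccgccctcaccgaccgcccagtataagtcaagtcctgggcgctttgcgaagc
Cx3cl1 (above control, chr8:94771930-94772179, plus strand): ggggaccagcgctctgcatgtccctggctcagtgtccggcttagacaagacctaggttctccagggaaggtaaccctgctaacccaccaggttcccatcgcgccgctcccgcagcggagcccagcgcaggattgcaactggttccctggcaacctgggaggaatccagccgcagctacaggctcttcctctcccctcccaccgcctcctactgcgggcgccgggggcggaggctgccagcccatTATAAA
Tarbp1 (below control, chr8:126475066-126475315, minus strand): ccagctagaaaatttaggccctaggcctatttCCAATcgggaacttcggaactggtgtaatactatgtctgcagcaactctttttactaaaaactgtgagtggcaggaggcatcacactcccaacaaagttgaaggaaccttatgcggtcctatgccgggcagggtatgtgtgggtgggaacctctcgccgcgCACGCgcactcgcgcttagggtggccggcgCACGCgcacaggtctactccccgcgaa
Each motif was searched on both strands. The core of the xenobiotic response element, which the aryl hydrocarbon receptor binds, was taken as GCGTG. The AP-1 site, bound by Fos and Jun proteins, was taken as TGANTCA. The NF-kB site was taken as GGANTTNCC and the cAMP response element as TGACGTCA. The core of the antioxidant response element, bound by NRF2, was taken as TGACNNNGC, and the interferon-gamma activated element as TTCNNNGAA. The TATA box, which lies just before the start of some genes, was taken as TATAAA. The last motif was the CCAAT box, searched by the letters of its name. The AP-1 letters overlap those of the antioxidant element in part. Mylk had an AP-1 match beginning 64 bases before the start and a CCAAT match at 235. Adamts1 had GCGTG at 158 and TATAAA at 32. Abca1 and Cx3cl1 each had TATAAA, at 29 and 6 bases before the start. Ptgr1 had CCAAT at 125, and Tarbp1 had it at 218 with GCGTG at 57 and 27. RefSeq promoters were present for 668 of the 854 members, and a gene can have several, so the shares are per promoter. GCGTG was found in 50.8% of the promoters of members that stood higher in PM2.5, in 51.3% of those of members that stood lower, in 47.0% of those of all genes at the CPM minimum and in 28.2% of all promoters. The TATA box was found in 6.78%, 6.83%, 6.01% and 12.4% of the same sets, the CCAAT box in 40.7%, 34.6%, 36.1% and 33.9%, and AP-1 in 1.69%, 3.49%, 4.06% and 6.75%. Members that stood higher had 59 promoters from 43 genes, of which 3 held the NF-kB letters, 1 the cAMP response element, 6 the antioxidant core and 4 the interferon-gamma element (all promoters: 3.15%, 1.55%, 10.2% and 7.02%). A match is a description of the letters and not evidence of a bound site.

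Total counts were 18548478 to 26206329 per library. EpH4 is labelled epithelial, but of 9 epithelial markers only the keratin gene Krt14 reached 1 CPM, and Epcam, Esrp1, Cldn4, Krt5, Krt18 and Krt19 were at 0 in every library. Cdh1, the epithelial cadherin gene on distal chromosome 8, and Esrp1 on proximal chromosome 4 were both below the member minimum. The summed level of the epithelial markers was 50.4 to 51.8 CPM in controls and 20.2 to 21.8 CPM in PM2.5. Of 8 fibroblast markers 7 reached 1 CPM, and their sum was 4663 to 4811 CPM in controls and 3953 to 4130 CPM in PM2.5. Of 6 macrophage and leukocyte markers 2 did, with sums of 8.74 to 9.84 CPM and 16 to 18.1 CPM, and Itgam was at 0. Endothelial markers reached 1 CPM in 0 of 3 cases and adipocyte markers in 1 of 3, with Adipoq at 0 and sums of 0.409 to 0.496 CPM in controls and 4.31 to 5.83 CPM in PM2.5. The part of these marker differences in the results below was not tested. In bulk RNA, fewer cells of a type and less RNA per cell cannot be told apart.

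The members of all 3 stretches took a smaller share of the counts in PM2.5. Together they held 8.15% and 8.12% of the counts in the controls and 6.51% and 6.498% in the PM2.5 libraries. Chromosome 16 members held 2.59% and 2.56% in controls against 2.17% and 2.14%. Those of proximal chromosome 4 held 2.75% and 2.79% against 2.08% and 2.08%, and those of distal chromosome 8 held 2.81% and 2.77% against 2.26% and 2.27%. In each stretch both PM2.5 libraries lay below both controls, and the gap between groups was wider than that between libraries of a group.

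**Figure D1:**
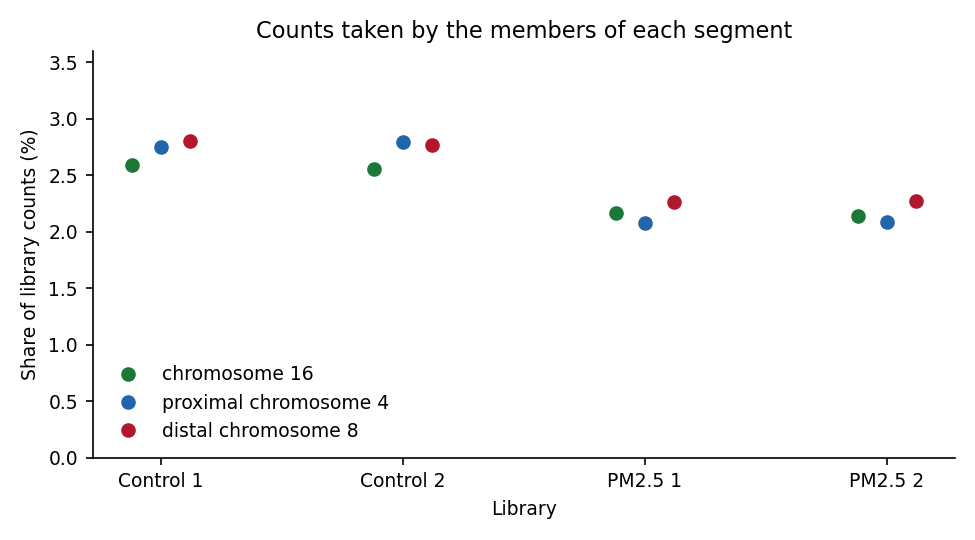
Share of all counts of a library (y axis, percent, from 0) taken by the members of each stretch, with 1 point per library for the 2 controls and 2 PM2.5 libraries. All 3 stretches sit between 2.56% and 2.81% in the controls and between 2.08% and 2.27% in PM2.5.

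The shift was of a different size in each stretch. After TMM scaling, the median log2 fold change of a member was -0.45 on proximal chromosome 4, -0.35 on distal chromosome 8 and -0.28 on chromosome 16, which is 27%, 21.7% and 17.9% below control. The order was the same in each PM2.5 library when its TMM-scaled CPM was set against the geometric mean of the controls. The member medians were then -0.46 and -0.43, -0.36 and -0.36, and -0.26 and -0.27. The corresponding control values were within 0.02 of 0. The pooled SD between libraries of 1 group was 0.0138, 0.0169 and 0.00849 in the same order, smaller than the gaps between stretches. The rest of chromosome 8 (264 genes) had a median of -0.01 and the rest of chromosome 4 (336 genes) one of -0.12. Medians of the 18 other chromosomes ran from -0.16 on chromosome 11 to 0.17 on chromosome 14.

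The shift was spread over the members. Both PM2.5 libraries lay below both controls in 697 of 854 members, against 40.5% of the 9664 genes at the CPM minimum, and above both controls in 59, against 32.8%. The groups overlapped in the other 98. By stretch, 232 of 309 members were lower and 29 higher on chromosome 16, 226 and 13 of 266 on proximal chromosome 4, and 239 and 17 of 279 on distal chromosome 8. By edgeR's quasi-likelihood test at an adjusted p of 0.05, 587 members were called lower and 27 higher, where 20.4% and 19.2% of the 12478 genes tested were called. Without PM2.5 replicate 2 the calls over all genes numbered 3110 in place of 4939. Since the same contrast selected the stretches, nothing is read from these counts. The width of the distribution was close to that elsewhere: the median distance of a member from the median of its stretch was 0.16, 0.18 and 0.13 for chromosome 16, proximal chromosome 4 and distal chromosome 8, and 0.16 for genes outside. A gene more than 0.5 above the median of its stretch was found in 4.85%, 5.64% and 5.38% of members, and in 6.33% of genes outside. One more than 0.5 below was found in 3.24%, 1.88% and 1.43%, and in 2.58% outside.

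**Figure D2:**
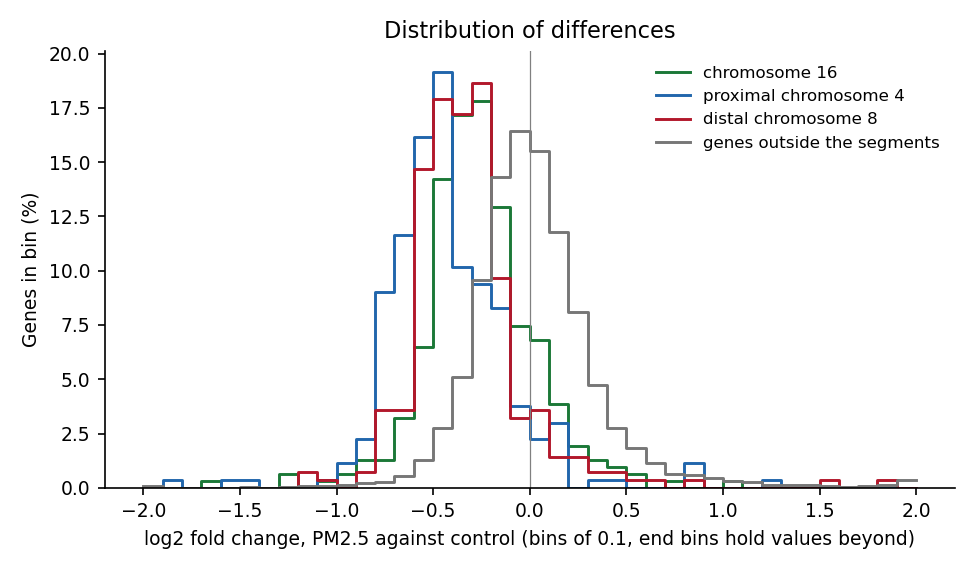
Distribution of log2 fold changes, PM2.5 against control (x axis, bins of 0.1), as the share of genes of each set in a bin (y axis, percent), for the 3 stretches and the genes outside them. The 3 coloured outlines have a shape like the grey one and peak to its left, with medians of -0.28, -0.45 and -0.35 against -0.01.

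Along the chromosomes the shift was not even. On proximal chromosome 4 the median was -0.49 for the 187 members in the first 70 Mb, -0.24 for the 43 members from 70 to 100 Mb and -0.43 for the 36 members from 100 Mb to the boundary. On chromosome 16 it was -0.31 for 238 members below 60 Mb, -0.17 for 27 members from 60 to 90 Mb and -0.16 for 44 members beyond. The 7 members of chromosome 16 between 70 and 80 Mb had a median of 0.01. These limits were chosen after the 10-Mb windows had been seen. Distal chromosome 8 was more even, with medians of -0.27 to -0.40 in its 10-Mb windows, the first of which straddles the boundary. In the windows before it, from 0 to 80 Mb, they were -0.07 to 0.12. On chromosome 4 beyond the boundary, windows from 110 Mb on had medians of -0.16, -0.13, -0.07, 0.10 and -0.24. The last of these, outside the stretch, was as low as the members from 70 to 100 Mb.

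**Figure D3:**
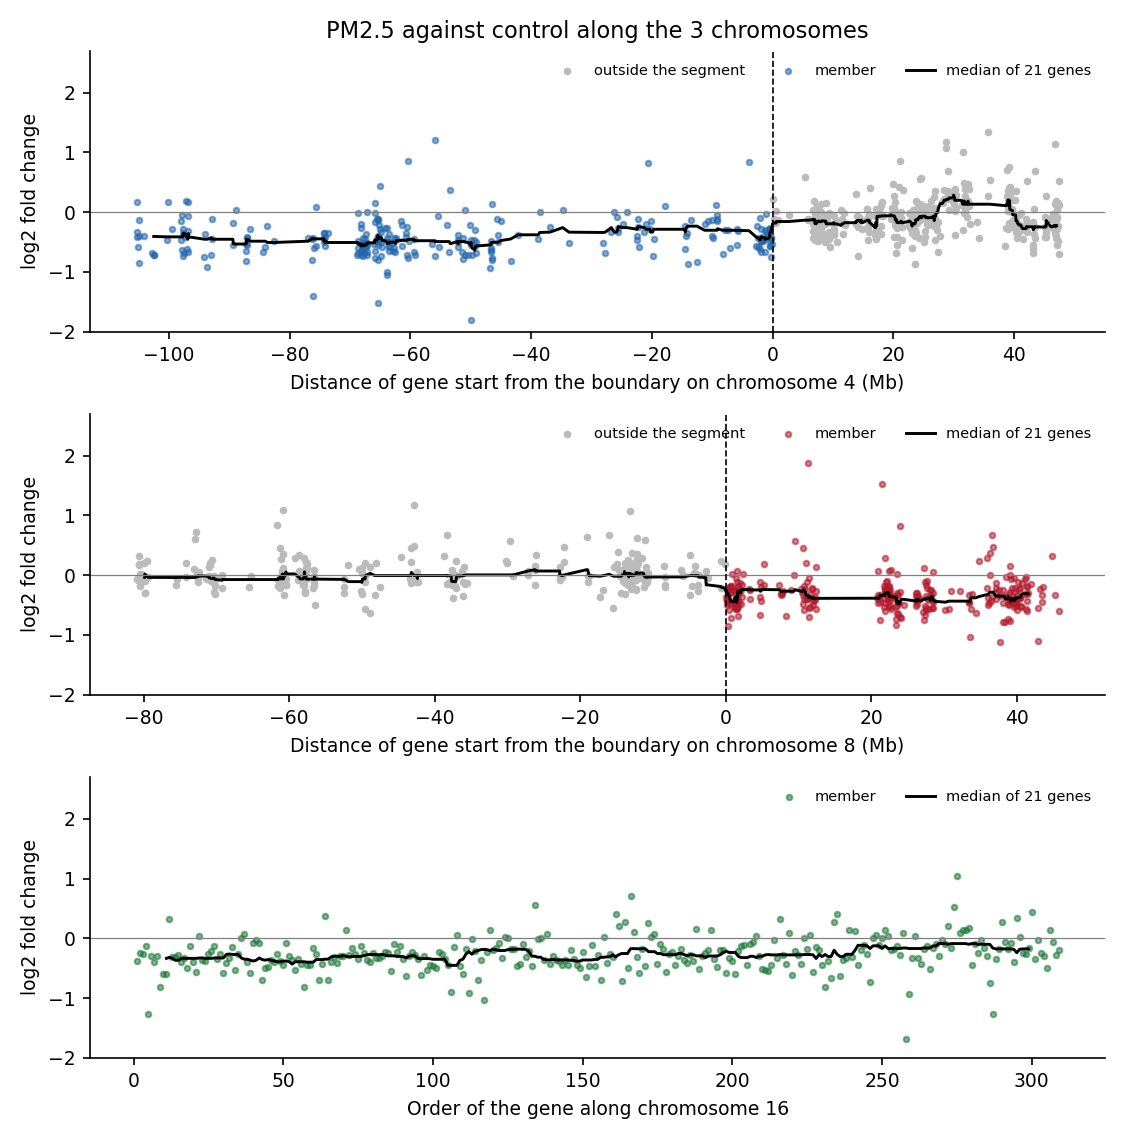
Log2 fold change of each gene at the CPM minimum (y axis) against the distance of its start from the boundary in Mb for chromosomes 4 and 8, and against gene order for chromosome 16. Coloured points are members, grey points other genes, and the black line is the running median of 21 genes, which steps at both boundaries and rises towards 0 at the far end of chromosome 16.

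The boundaries came from the same data, and the genes next to them are given without a test. The last 20 members before the chromosome 4 boundary, over 1.77 Mb, had a median of -0.45, with 19 lower in both PM2.5 libraries, and the 20 genes after it one of -0.13. The nearest members were Txndc12 (log2 fold change -0.43, SE 0.077), Kti12 (-0.76, SE 0.092) and Nrdc (-0.53, SE 0.053), which encode a thioredoxin-domain protein, an elongator-associated factor and a metalloprotease. The next genes outward were Osbpl9 (0.21, SE 0.060), Eps15 (-0.12, SE 0.058) and Rnf11 (-0.18, SE 0.089). Rnf11 stood at -0.34 without Control replicate 1 and at -0.02 without Control replicate 2. Nrdc starts 60.5 kb before Osbpl9, an oxysterol-binding protein gene. Nrdc had 243 and 244 CPM in controls and 168 and 170 CPM in PM2.5. Osbpl9 had 70.8 and 71.2 CPM against 82.3 and 82.2 CPM, so the groups were apart in opposite directions.

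At the chromosome 8 boundary the first 20 members, over 0.828 Mb, had a median of -0.39, with 18 lower in both PM2.5 libraries, and the 20 genes before it a median of -0.001. Inside were Scoc (-0.36, SE 0.070), the respiratory complex I subunit gene Ndufb7 (-0.43, SE 0.065) and Tecr (-0.42, SE 0.055), an enzyme of very long chain fatty acid synthesis. Outside were Elmod2 (0.18, SE 0.120), Rnf150 (0.24, SE 0.088) and Zfp330 (-0.21, SE 0.074). Scoc had 56.4 and 54.6 CPM in controls and 44.7 and 41.9 CPM in PM2.5. Elmod2, which starts 117 kb before it, had 19.9 and 26.0 CPM against 25.3 and 27.3 CPM, and its groups overlapped. Elmod2 stood at 0.01 without Control replicate 1 and at 0.39 without Control replicate 2, and Rnf150 at 0.10 and 0.38.

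A member was taken to escape the shared shift when both PM2.5 libraries were above both controls. The 59 such members were 29 on chromosome 16, 13 on proximal chromosome 4 and 17 on distal chromosome 8. Without Control replicate 2 the number was 95, with 1 control left for the PM2.5 libraries to exceed. The median abundance was 28.4 CPM for escaping members, 29.6 CPM for members whose groups overlapped and 56.4 CPM for members that were lower. The part of this depth difference in the counts was not tested. A fall of log2 fold change with abundance was not particular to the stretches. Its rank correlation with mean CPM was -0.2 in genes outside. It was -0.161 on chromosome 16, -0.186 on proximal chromosome 4 and -0.141 on distal chromosome 8. The median transcript GC content of escaping members was 48.9%, against 48.9% for the lower members, and their genes spanned a median of 51.2 kb against 27.2 kb.

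On distal chromosome 8 the escaping members were led by Cx3cl1, which encodes the chemokine fractalkine (ENSMUSG00000031778, chr8:95498637-95509055, plus strand). It had 63.9 and 70.5 CPM in the controls and 241 and 252 CPM in PM2.5. The groups were 3.66-fold apart, a log2 fold change of 1.87 (SE 0.065), in a stretch with a median of -0.35. The carboxylesterase gene Ces2g had 5.83 and 4.22 CPM in controls and 14.5 and 14.0 CPM in PM2.5, a log2 fold change of 1.53 (SE 0.156). Nqo1, a quinone reductase induced through the aryl hydrocarbon receptor and NRF2, had 29.9 and 29.1 CPM against 50.2 and 54.0 CPM (0.82, SE 0.075). By the definition of escape, the groups of these genes do not overlap. Smaller differences were seen for Gse1 (50.6 and 49.0 against 65.6 and 72.6 CPM), the ciliary BBSome gene Bbs2 (9.25 and 10.2 against 14.0 and 13.0 CPM) and the actin-binding Cotl1 (15.6 and 16.7 against 20.5 and 21.2 CPM), with log2 fold changes of 0.47, 0.46 and 0.37.

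On proximal chromosome 4 the cholesterol exporter gene Abca1 (ENSMUSG00000015243, chr4:53030787-53159895, minus strand) had 13.3 and 19.3 CPM in controls and 35.3 and 41.0 CPM in PM2.5, a log2 fold change of 1.20 (SE 0.144). Tmeff1, which encodes a transmembrane protein with follistatin-like domains, had 18.3 and 16.7 CPM against 32.1 and 31.2 CPM (0.86, SE 0.090). The lipid phosphatase gene Plpp3 had 57.8 and 71.0 CPM against 113 and 117 CPM (0.83, SE 0.086). In Abca1 the controls differed more from each other than in Tmeff1. Hacd4, for an enzyme of very long chain fatty acid elongation, had 13.5 and 11.3 CPM against 23.0 and 20.6 CPM (0.83, SE 0.117). The protease inhibitor gene Reck (5.73 and 8.10 against 9.35 and 9.80 CPM) and the transcription factor gene Klf4 (15.6 and 18.2 against 21.1 and 22.9 CPM) had log2 fold changes of 0.44 and 0.37. Reck stood at 0.24 without Control replicate 1 and at 0.73 without Control replicate 2.

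On chromosome 16 the differences among escaping members were smaller. Mylk, the myosin light chain kinase gene (ENSMUSG00000022836, chr16:34565580-34822790, plus strand), had 25.4 and 28.4 CPM in controls and 43.3 and 45.0 CPM in PM2.5, a log2 fold change of 0.71 (SE 0.082). Fam43a had 55.1 and 60.5 CPM against 83.6 and 87.4 CPM (0.56, SE 0.069). Ifnar2, a chain of the type I interferon receptor, had 37.5 and 38.3 CPM against 53.4 and 56.1 CPM (0.53, SE 0.070). The transcription factor gene Ets2 (37.8 and 37.9 against 50.8 and 52.2 CPM), Cldnd1 (49.5 and 46.0 against 65.0 and 61.8 CPM) and the membrane protein gene Heg1 (84.6 and 81.4 against 109 and 111 CPM) had log2 fold changes of 0.44, 0.41 and 0.40. The predicted gene Gm21970, named after its value was seen, had a log2 fold change of 1.05. Its span overlaps that of Ifnar2, and whether counting used strand is not given in the sources used here, so their reads may not be separate.

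Of the 29 escaping members on chromosome 16, 13 had an escaping member next to them, as had 0 of 13 on proximal chromosome 4 and 2 of 17 on distal chromosome 8; the difference was not tested. The runs on chromosome 16 were Heg1 with Itgb5, Mylk with Hacd2, Cpox with Cldnd1, Cxadr with Btg3, Ifnar2 with Gm21970, and Ifnar1 with Ifngr2 and Tmem50b. Several of these were small and moved by over 1.5 times with a library left out: Ifnar1 stood at 0.14, and at 0.08 without Control replicate 1. Among members that did not escape, 14.3% on chromosome 16 had an escaping neighbour.

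**Figure D4:**
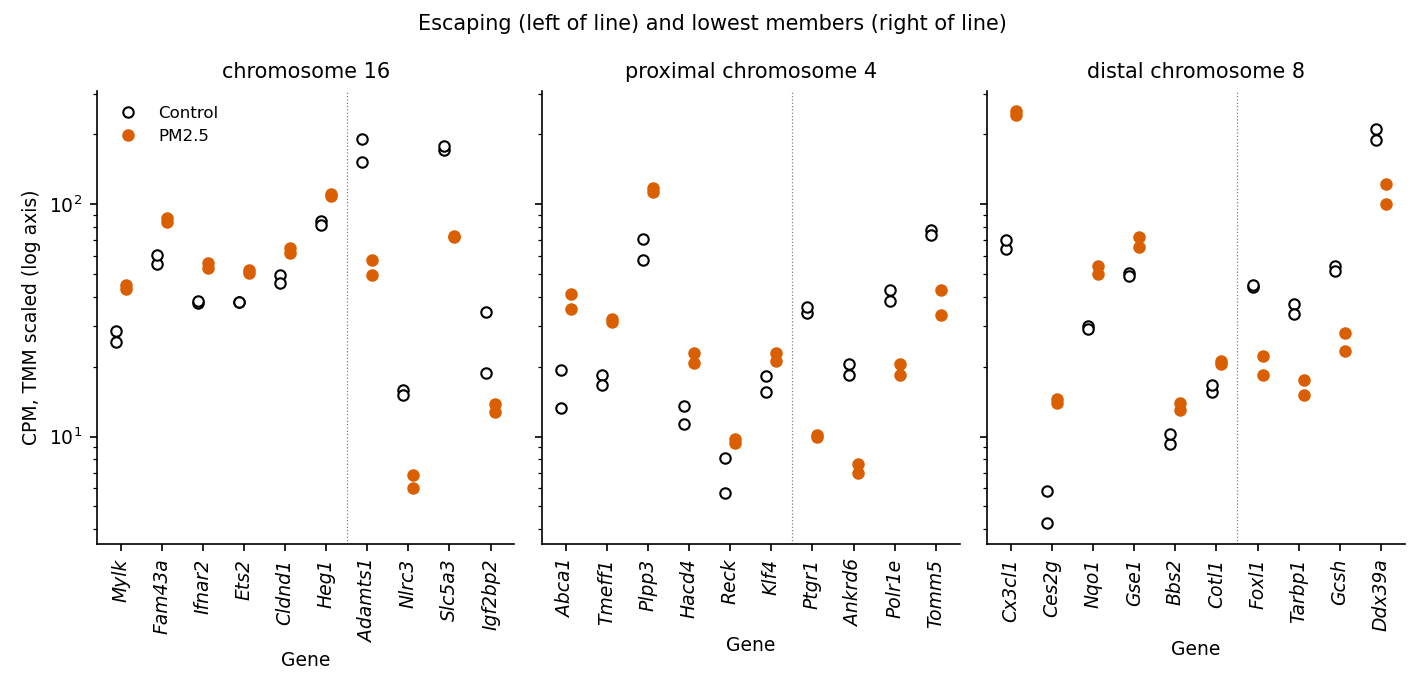
TMM-scaled CPM (y axis, log scale) of 6 escaping members and 4 members lower in both PM2.5 libraries in each stretch, taken by log2 fold change with predicted and clone names (Gm21970, 6430548M08Rik) and overlapping groups (Car9) left out, with open circles for the 2 controls and filled circles for the 2 PM2.5 libraries. Cx3cl1 reaches 252 CPM from at most 70.5 CPM, while Adamts1 drops from at least 152 CPM to at most 57.4 CPM.

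Among members lower in both PM2.5 libraries, the 4 with the lowest log2 fold change in each stretch are described. Car9, a carbonic anhydrase gene on proximal chromosome 4 named after its values were seen, is not one of them, since its groups overlapped: 3.78 and 45.7 CPM in controls and 5.38 and 13.1 CPM in PM2.5, with a log2 fold change of -1.52 that was 1.26 without Control replicate 2. Ptgr1, a prostaglandin reductase gene on proximal chromosome 4 (ENSMUSG00000028378, chr4:58965439-58987119, minus strand), had 33.9 and 36.1 CPM in controls and 9.98 and 10.1 CPM in PM2.5, a log2 fold change of -1.80 (SE 0.096). Ankrd6 had 20.4 and 18.4 CPM against 6.98 and 7.58 CPM (-1.41, SE 0.122). The RNA polymerase I subunit gene Polr1e and Tomm5, a mitochondrial import pore subunit gene, had log2 fold changes of -1.05 and -0.99. On chromosome 16 the secreted protease gene Adamts1 (ENSMUSG00000022893, chr16:85590715-85600001, minus strand) had 191 and 152 CPM against 57.4 and 49.8 CPM (-1.68, SE 0.104). The myo-inositol transporter gene Slc5a3 had 172 and 178 CPM against 73.4 and 72.4 CPM (-1.26, SE 0.058). Nlrc3, of the NOD-like receptor family, had -1.27, from 15.9 and 15.1 CPM to 6.83 and 6.004 CPM. Igf2bp2, an RNA-binding protein gene, had 18.9 and 34.3 CPM in controls and 13.8 and 12.7 CPM in PM2.5 (-1.03, SE 0.223), so its controls were spread widely, and it stood at -0.51 without Control replicate 2. On distal chromosome 8 the forkhead factor gene Foxl1 had -1.13, the tRNA methyltransferase gene Tarbp1 (ENSMUSG00000090290, chr8:127152068-127201804, minus strand) -1.11, the glycine cleavage gene Gcsh -1.03 and the RNA helicase gene Ddx39a -0.85. By that choice the groups of these 12 genes do not overlap.

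Gene groups by function are given with their genes in the stretches beside those elsewhere. In 12 of 12 lists with at least 2 genes on each side, the median inside was below the median elsewhere, and since the stretches were selected for being lower in this contrast, that follows from the selection and supports nothing further. The difference, inside minus elsewhere, ran from -0.50 to -0.02 on the log2 scale, with a median of -0.26. The counts inside are read against all members, of which 81.6% were lower in both PM2.5 libraries and 6.91% higher. They are also read against the 40.5% lower and 32.8% higher among all genes at the CPM minimum, given above. None of these differences was tested. The aryl hydrocarbon receptor list has 1 member inside, Nqo1, at 0.82, and a median of 0.65 in 6 genes elsewhere.

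Receptor genes of the interferon pathway on chromosome 16 stood near or above control. Among the interferon and interleukin 10 receptor chains and their signalling genes, 6 lay inside, with a median of 0.12, and 7 elsewhere, with a median of 0.36. Inside, 3 were higher, 1 lower and 2 overlapped. Ifnar1 had 69.5 and 75 CPM against 77.3 and 81.7 CPM, and the kinase gene Jak1 on proximal chromosome 4 had 337 and 342 CPM against 276 and 274 CPM. Elsewhere Jak2 stood highest, at 56.1 and 54.6 CPM against 147 and 141 CPM. Interferon-stimulated genes had a median of 0.02 in 7 inside genes and 0.52 in 21 elsewhere. Inside, 2 were higher, 1 lower and 4 overlapped. The RNA sensor Rigi had 92.0 and 101 CPM against 91.5 and 100.2 CPM, and its small difference changed sign with the scaling. NF-kB and cytokine genes had a median of -0.04 in 4 inside genes and 0.12 in 19 elsewhere. Of the 4 inside, 2 were higher, Cx3cl1 (1.87) and Nod2. The other 2 were lower, Nfkbiz (-0.28) and the lipopolysaccharide receptor gene Tlr4 (-0.38).

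Of the housekeeping complexes, all 5 inside genes of the cytosolic ribosome were lower, with a median of -0.58, against -0.27 in 75 elsewhere, all of them lower too. Rps6 had 2009 and 2084 CPM against 1369 and 1375 CPM, Rpl24 had 564 and 584 CPM against 380 and 368 CPM, and Rpl13 had 1325 and 1317 CPM against 920 and 910 CPM. Near-identical copies can share reads with ribosomal genes, so these values are uncertain. Uba52rt, a ubiquitin and ribosomal fusion retrogene, had 658 and 633 CPM against 581 and 594 CPM and carries the same doubt. All 3 proteasome genes inside were lower (median -0.47, against -0.20 in 34 elsewhere), and so were all 4 respiratory chain genes (-0.42 against -0.09 in 56). Psmd7, a proteasome lid subunit gene, had 232 and 211 CPM against 137 and 133 CPM. Ndufb6, of complex I, had 88.5 and 82.9 CPM against 56.6 and 49.4 CPM. Calr, the endoplasmic reticulum chaperone gene on distal chromosome 8, overlapped, at 826 and 760 CPM against 783 and 752 CPM, with a sign that changed under library size only. Of 11 chaperone genes inside, 9 were lower and 2 overlapped (median -0.43, against -0.36 in 24 elsewhere). Vcp, a segregase gene, had 748 and 691 CPM against 425 and 421 CPM.

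DNA replication and S phase genes were lower in 10 of 10 inside, where 81.6% of all members were (median -0.36, against -0.16 in 29 elsewhere). Mcm4, a helicase subunit gene, had 280 and 262 CPM against 202 and 193 CPM, and the origin licensing gene Cdt1 stood at -0.45. The 2 inside genes of the ATF4 list, the amino acid transporter gene Slc7a5 (-0.78) and Aars1 (-0.58), were lower, as was the median elsewhere (-0.30 in 19). Among 7 NRF2 targets inside, 3 were lower, 3 overlapped and 1, Nqo1, was higher (median -0.40, against -0.12 in 20 elsewhere). Thioredoxin gene Txn1 had 615 and 606 CPM against 383 and 361 CPM, while Sod1 stood at -0.51. Immediate early genes had medians of -0.17 in 7 inside and -0.16 in 11 elsewhere: 5 inside were lower and 2, Klf4 and Ets2, were higher. Jun had 148 and 135 CPM against 78.0 and 76.8 CPM. Matrix and adhesion genes had medians of -0.03 in 9 inside and 0.06 in 18 elsewhere. Of the 9 inside, 3 were lower, 2 higher and 4 overlapped, from Adamts1 at -1.68 to Reck at 0.44. Col8a1 stood at -0.38, and Cd47 overlapped, its sign turning with the scaling.

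**Figure D5:**
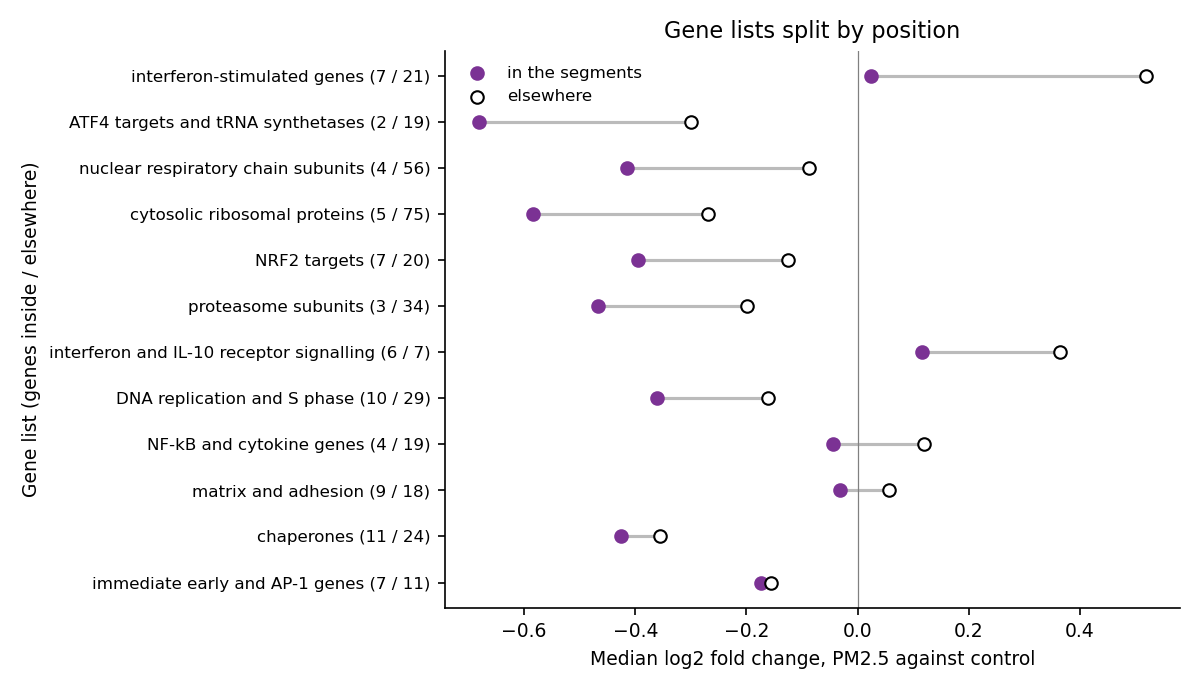
Median log2 fold change, PM2.5 against control (x axis), of 12 gene lists (y axis, with the number of genes inside and elsewhere), for members of the 3 stretches (filled) and genes elsewhere (open). The filled circle is left of the open one in 12 of 12 lists, which the selection of the stretches brings about, and the gap is widest for interferon-stimulated genes, at 0.02 against 0.52.

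The orthologue lists of chromosome 16 group genes by position, so their split overlaps that of the windows and is not separate from it. The 23 orthologues of 22q11 genes had a median of -0.28, with 22 lower and 0 higher, and the 56 orthologues of human chromosome 21 genes one of -0.13, with 32 lower and 12 higher. Of the first, Ranbp1, a nuclear transport factor gene, had 256 and 233 CPM against 172 and 163 CPM. Of the others, the amyloid precursor gene App was slightly higher, at 346 and 351 CPM against 374 and 369 CPM, and the chaperonin gene Cct8 had 432 and 389 CPM against 310 and 301 CPM. On proximal chromosome 4, a list of 14 genes with human orthologues on the short arm of chromosome 9 held 12 members. Their median was -0.33, with 11 lower and 0 higher. The 3 orthologue lists were written from general knowledge, without an orthology table. They may leave out other members with orthologues in the same human regions, so their counts hold for the listed genes only. Of all members, 81.6% were lower and 6.91% higher. Mtap, of methionine salvage, had 466 and 456 CPM against 289 and 268 CPM.

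A second deposited count, total gene reads, exceeds the raw count by reads that the file headers do not define, and its excess was not used to choose the stretches. It shares its libraries with the raw count. Among the 791 members with at least 100 such extra reads, the median log2 ratio of the PM2.5 to the control share was -0.27 on chromosome 16, -0.35 on proximal chromosome 4 and -0.40 on distal chromosome 8, and 0.01 in 8153 genes outside. The order of proximal chromosome 4 and distal chromosome 8 was thus the reverse of that in the raw counts. Of 51 escaping members with that many extra reads, 26 were higher, 9 lower and 16 overlapping in them. Of all 8944 genes with that many, 28% were higher and 31.2% lower, and of the 791 members 51 were higher and 570 lower. Mylk had 149 and 253 extra reads in the controls and 330 and 355 in PM2.5.

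The shift was also set out by transcript properties. Genes at the CPM minimum were divided into 3 equal classes by GC content, by abundance and by transcript length. In every class the median of each stretch was below that of genes outside in the same class. The stretches were selected for being lower in this contrast, so this follows at least in part from the selection. The part of these properties in the shift was not tested. The differences were -0.313 to -0.245 on chromosome 16, -0.486 to -0.421 on proximal chromosome 4 and -0.378 to -0.322 on distal chromosome 8. Below the CPM minimum, the 178 tested genes of the 3 stretches had a median of -0.0002, and the 2636 tested genes elsewhere one of 0.28.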

How the data were processed

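RNA of 4 EpH4 libraries, 2 control and 2 PM2.5, was compared. The authors deposited raw counts per gene without normalization and RPKM values, that is, reads scaled to gene length and library size. Another deposited column, total gene reads, has no definition in the headers. Positions are on GRCm39, per the submitters' processing notes. The aligner was not given in the sources used here, nor was the counter or annotation. Total counts were 18548478 to 26206329 per library.

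Counts of the 4 libraries were fitted in R 4.3.3 by edgeR 4.0.16, after filterByExpr (12478 genes) and TMM scaling, with an unpaired quasi-likelihood test and Benjamini-Hochberg adjustment at 0.05. CPM values in the text are TMM scaled, with exceptions that use total counts. These are the CPM minima, the means set against the minimum of 8, the median abundances, the abundance classes and the marker sums. Dividing each absolute log2 fold change by the root of its F gave the SE. RPKM entered as log2(RPKM + 0.1) or log2(RPKM + 1). Promoters came from RefSeq on GRCm38.p6, of which no coordinate was joined to the count table. Transcript GC content and length came from GENCODE M21. The fit was tested on simulated data.

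The members and the gene lists were chosen with earlier results of these data known. The genes named in each stretch were the 6 escaping members with the highest log2 fold change, the 4 lowest and the 2 with the highest mean RPKM, the 3 nearest to each side of a boundary, and up to 3 per list by mean CPM, predicted and clone names left out; other names are marked or appear as parts of counts and runs. Across genes, the deviations of Control replicate 1 and PM2.5 replicate 1 from their group means correlated at 0.124. The labels give no pairing, so no pairing was assumed. Alternatives were other scalings, filters, DESeq2 1.42.0, limma-voom (limma 3.58.1), a replicate block, RPKM, total gene reads, other CPM minima, moved boundaries and leaving out each library.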

Additional observations from a re-analysis of the deposited data

How the results depend on the processing

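The median of each stretch was below 0 under every alternative run. The medians are given in the order chromosome 16, proximal chromosome 4, distal chromosome 8, with main values of -0.28, -0.45 and -0.35. They were -0.2412, -0.4111 and -0.3089 with upper quartile factors, -0.222, -0.3921 and -0.2897 with library size only, and -0.3061, -0.4758 and -0.3737 with TMM on genes outside the stretches. On log2(RPKM + 0.1) they were -0.2537, -0.4236 and -0.3256 and on log2(RPKM + 1) -0.2301, -0.3848 and -0.2945. A minimum of 1 CPM gave -0.2703, -0.4393 and -0.3347 and one of 30 CPM -0.3004, -0.4706 and -0.3697. Total gene reads gave -0.306 on chromosome 16 and -0.3812 on distal chromosome 8. Leaving out each library gave ranges of -0.2918 to -0.2698, -0.4657 to -0.4393 and -0.389 to -0.3385. The count of escaping members was 59, and 100 at 1 CPM, 29 at 30 CPM and 66 to 95 with each library left out, where a lone library stands for its group. Calls over all genes numbered 4939, and 3110 to 4842 with each library left out. With a replicate block, which the labels do not justify as pairing, the medians were -0.28, -0.45 and -0.35 and the calls 5793. Of 1288 alternative values for 92 named genes, 1148 moved by less than 1 SE, 125 by more, and 15 changed sign, all in 6 genes whose groups overlapped. With upper quartile factors Cd47 stood at 0.01173 and Rigi at 0.02773, and with library size only Cd47 stood at 0.03072, Rigi at 0.04667 and Calr at 0.01548. Rigi stood at 0.009768 on log2(RPKM + 0.1) and 0.009358 on log2(RPKM + 1), and Dtx3l at -0.02115 with total gene reads. Leaving out each library gave -0.1351 to 0.2065 for Dtx3l, -0.01592 to 0.1807 for Parp9, -0.08763 to 0.01954 for Cd47, -0.08667 to 0.05173 for Rigi, -2.334 to 1.257 for Car9 and -0.113 to 0.009867 for Calr. Limma-voom and the replicate block give no count of escaping members of their own, since they use the TMM scaling. No count was taken from DESeq2, which has its own scaling factors. With median-ratio factors in edgeR the count was 59. RPKM entered that count as deposited, since a pseudocount does not alter the order. The cause of these differences was not tested. The 2 libraries per group limit the precision.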
